A study of Mus musculus and Homo sapiens with 56 samples.

Results

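The gene set described here is p53 itself and 31 genes of its pathway, 32 of the 52459 genes in the RNA count table. Members were chosen by name: Trp53, its partners Mdm2 and Mdm4, and genes known as direct p53 targets in cell cycle arrest, cell death or DNA repair. They form 4 roles, with 3 regulators, 10 arrest genes, 14 death genes and 5 repair genes. Of the 32, 31 passed the filter on low counts, and Dram1, with 2 and 3 reads in WT and 4 and 11 in D395A, did not.

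The study concerns 2 chromatin-bound signals, the RNA modification N6-methyladenosine (m6A) and the histone mark H3K9me2, and how one bears on the other. The mouse cells were E14TG2a, an embryonic stem cell line, grown without feeders on gelatin in an N2B27-based medium with LIF, the MEK inhibitor PD0325901, the GSK3β inhibitor CHIR99021 and knockout serum replacement. Both groups shared this medium and neither was treated otherwise. The WT group had an unchanged METTL3, the catalytic subunit of the main m6A writer of messenger RNA, and the D395A group carried that substitution in its catalytic centre. RNA-seq of ribosome-depleted total RNA gave 2 libraries per genotype. Immunoprecipitation of m6A from fragmented chromatin RNA gave 1 peak list for WT, from 2 immunoprecipitates and 2 inputs, and 1 for D395A, from 1 of each. The labels do not say whether the D395A line is 1 clone or whether libraries came from separate cultures, so p-values measure only the spread between these libraries.

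p53 is a transcription factor that is kept low in unstressed cells by MDM2, a ubiquitin ligase, and by its relative MDM4, which binds the activation domain of p53. After DNA damage or other stress p53 accumulates and switches on genes that halt the cell cycle, trigger apoptosis or help repair DNA. Mdm2 is itself one of these targets, which closes a feedback loop, and mouse embryonic stem cells are known to hold abundant p53 that is largely restrained.

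Reads counted in genes totalled 13953069 and 19246342 (WT) and 12743677 and 18151353 (D395A). Mettl3 stood at 36.2 and 35.5 CPM (counts scaled to a fixed library size) in the WT libraries against 30.6 and 33.9 CPM in D395A, a difference that did not pass (adjusted p = 0.114, edgeR quasi-likelihood test, Benjamini-Hochberg). A codon substitution need not alter a gene's count, so this value does not check the genotype. The 8 embryonic stem cell markers summed to 3467 and 3351 CPM in WT and to 1986 and 1933 CPM in D395A. Of these, 6 fell, Pou5f1 and Nanog among them, Lin28a rose (log2 fold change 0.44) and Sox2 did not pass. The 9 fibroblast markers summed to 7.32 and 7.24 CPM in WT and to 12.3 and 4.997 CPM in D395A. Twist2 (55 and 0 reads) and Prrx1 (36 and 6 reads) differed between the D395A libraries. Of the 5 fibroblast markers tested, 1 rose, 2 fell and 2 did not pass. The 5 endoderm markers summed to 11.4 and 10.5 CPM in WT, compared with 31.9 and 33.3 CPM in D395A, most of the latter from Foxa2 (26.9 and 28.8 CPM). Of the other endoderm markers Gata4 fell (8.14 and 7.995 CPM in WT, 1.45 and 1.86 CPM in D395A), Gata6 and Sox17 did not pass, and Afp was at 0 in all libraries. The part of these shifts in the results below was not tested, and fewer cells of a type and less RNA per cell cannot be told apart in bulk RNA.

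Promoter sequence was examined first, because p53 acts through a recurring DNA element. The element is built from pairs of a 10-base half-site, the p53 half-site consensus, which reads the same on both strands in its degenerate form. RefSeq promoter windows (GRCm38.p6, 250 bases before to 50 bases after an annotated start) were at hand for 24 members, and not for Zmat3, Tnfrsf10b, Xpc, Ddb2, Pmaip1, Perp, Rrm2b and Trp53inp1. A half-site without mismatch was found in 11 of the 24 (45.8%), against 9.55% of all 27025 genes with a window. A pair of half-sites with at most 1 mismatch in all and a spacer of at most 13 bases was found in 3 of the 24 (12.5%), against 0.72% of all genes. The 3 genes were Cdkn1a, Ccng1 and Gtse1. Most members were chosen as known p53 targets, so a share above that of all genes is built into the choice. It is not a result about these cells. Such matches are descriptions of the letters and not binding sites.

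The 3 genes with a pair are shown first, each as the pair with its flanks, because they carry the sequence nearest to a full p53 element. All 3 act in the cell cycle: Cdkn1a encodes the CDK inhibitor p21, Ccng1 encodes cyclin G1, and Gtse1 encodes a microtubule-associated protein that binds p53. Capitals mark the half-sites of the best-matching pair only, and each sequence is given 5′ to 3′ on the strand of the gene.
Cdkn1a, chr17:29090891-29090952, plus strand: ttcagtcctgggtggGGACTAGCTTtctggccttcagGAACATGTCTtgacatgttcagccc
Ccng1, chr11:40755447-40755496, minus strand: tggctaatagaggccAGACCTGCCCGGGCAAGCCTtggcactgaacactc
Gtse1, chr15:85859930-85859979, plus strand: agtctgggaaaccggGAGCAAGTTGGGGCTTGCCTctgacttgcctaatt

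Both half-sites of the Cdkn1a pair matched without mismatch, 12 bases apart, with the pair starting 73 bases before the more upstream annotated start. The window at its other annotated start (chr17:29093519-29093818) held no half-site. In Ccng1 and Gtse1 the half-sites abutted and the pair held 1 mismatch. The whole Cdkn1a window that holds the pair is printed below so that the pair can be read in its context, again with the half-sites in capitals.
Cdkn1a window, chr17:29090729-29091028, plus strand: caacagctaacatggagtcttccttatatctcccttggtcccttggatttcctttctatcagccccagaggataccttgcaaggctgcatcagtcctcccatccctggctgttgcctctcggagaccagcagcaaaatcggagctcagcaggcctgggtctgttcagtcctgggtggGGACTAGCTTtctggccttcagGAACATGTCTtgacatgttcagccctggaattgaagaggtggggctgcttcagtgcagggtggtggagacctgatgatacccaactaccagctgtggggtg

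The other 8 genes held a single half-site, shown in capitals. Sesn1 and Polk also had a window at another annotated start, without a half-site (chr10:41810324-41810623 and chr13:96542530-96542829). The set covers p53 and its ligase (Trp53, Mdm2), the stress sensors Gadd45a and Sesn1, the apoptosis genes Bax, Aen and Ei24, and Polk, a polymerase that copies past damaged bases.
Trp53, chr11:69580269-69580308, plus strand: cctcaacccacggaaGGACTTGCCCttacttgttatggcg
Mdm2, chr10:117710920-117710959, minus strand: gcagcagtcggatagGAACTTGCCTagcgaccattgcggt
Gadd45a, chr6:67037423-67037462, minus strand: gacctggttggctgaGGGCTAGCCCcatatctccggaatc
Sesn1, chr10:41887251-41887290, plus strand: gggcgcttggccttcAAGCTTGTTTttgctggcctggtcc
Bax, chr7:45467075-45467114, minus strand: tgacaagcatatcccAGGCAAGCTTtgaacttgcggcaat
Aen, chr7:78895922-78895961, plus strand: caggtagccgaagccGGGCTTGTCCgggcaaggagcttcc
Ei24, chr9:36797320-36797359, minus strand: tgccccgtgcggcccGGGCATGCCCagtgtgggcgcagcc
Polk, chr13:96519394-96519433, minus strand: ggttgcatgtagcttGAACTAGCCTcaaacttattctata

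In the RNA, p53 and Mdm4 fell in D395A while more of the targets rose than fell. Of the 31 tested members, 17 rose (54.8%, against 36.8% of the 17778 tested genes) and 9 fell (29.0%, against 34.3%), with 5 not passing at an adjusted p of 0.05. The median log2 fold change (D395A against WT) was 0.27 over the tested members and 0.003 over all tested genes. Of the 28 tested targets, leaving out the 3 regulators, 17 rose and 7 fell, with a median log2 fold change of 0.47. Both D395A libraries lay above both WT libraries for 17 tested members (against 43.1% of tested genes) and below them for 11 (against 42%), so that 28 were apart in either direction (against 85.1%). Members that rose at least 2-fold numbered 4, Fas, Perp, Plk3 and Tnfrsf10b (against 20% of tested genes), and 1, Mdm4, fell at least 2-fold (against 11.9%). With 71.1% of all tested genes passing in either direction, a pass by itself sets no member apart.

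**Figure D1:**
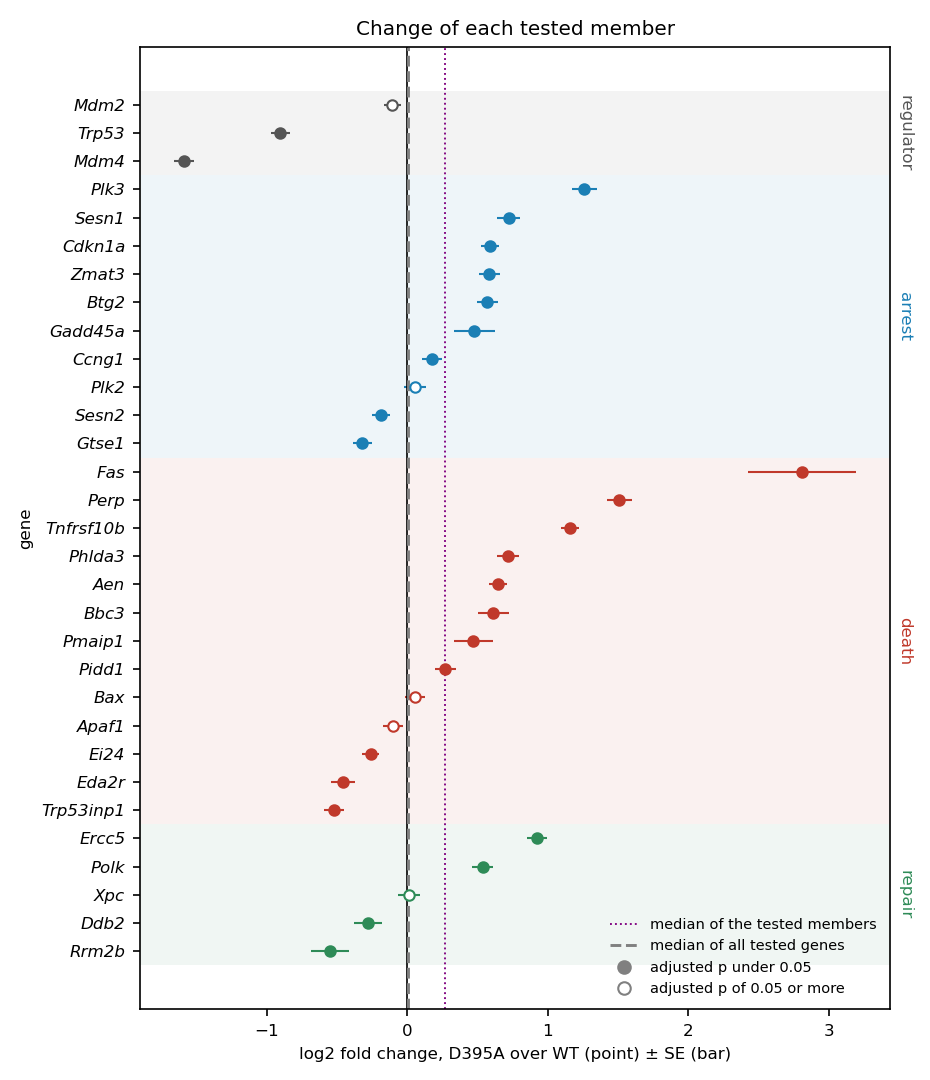
Log2 fold change (D395A against WT) of the 31 tested members with its standard error, by role. Mdm4 has the lowest value, at -1.59, and Fas the highest, at 2.81, and rising and falling genes are both present among arrest, death and repair genes.

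All 3 regulators were lower in both D395A libraries than in both WT libraries. Trp53 (chr11:69580359-69591873, mm10) stood at 398 and 376 CPM in WT but 198 and 215 CPM in D395A. This was 1.87-fold lower (log2 fold change -0.91 ± 0.07 SE, adjusted p = 2.88e-08, edgeR quasi-likelihood test, Benjamini-Hochberg), and the WT and D395A libraries lay far apart. Mdm4 stood at 505 and 530 CPM in the WT libraries against 164 and 179 CPM in D395A. Its RNA was 3.01-fold lower (log2 fold change -1.59 ± 0.07 SE, adjusted p = 9.50e-11, same test), the largest fall among the members. Mdm2 stood at 126 and 129 CPM in WT, compared with 117 and 119 CPM in D395A. These libraries did not overlap either, but the log2 fold change of -0.11 ± 0.06 SE did not pass (adjusted p = 0.116, edgeR quasi-likelihood test, Benjamini-Hochberg).

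**Figure D2:**
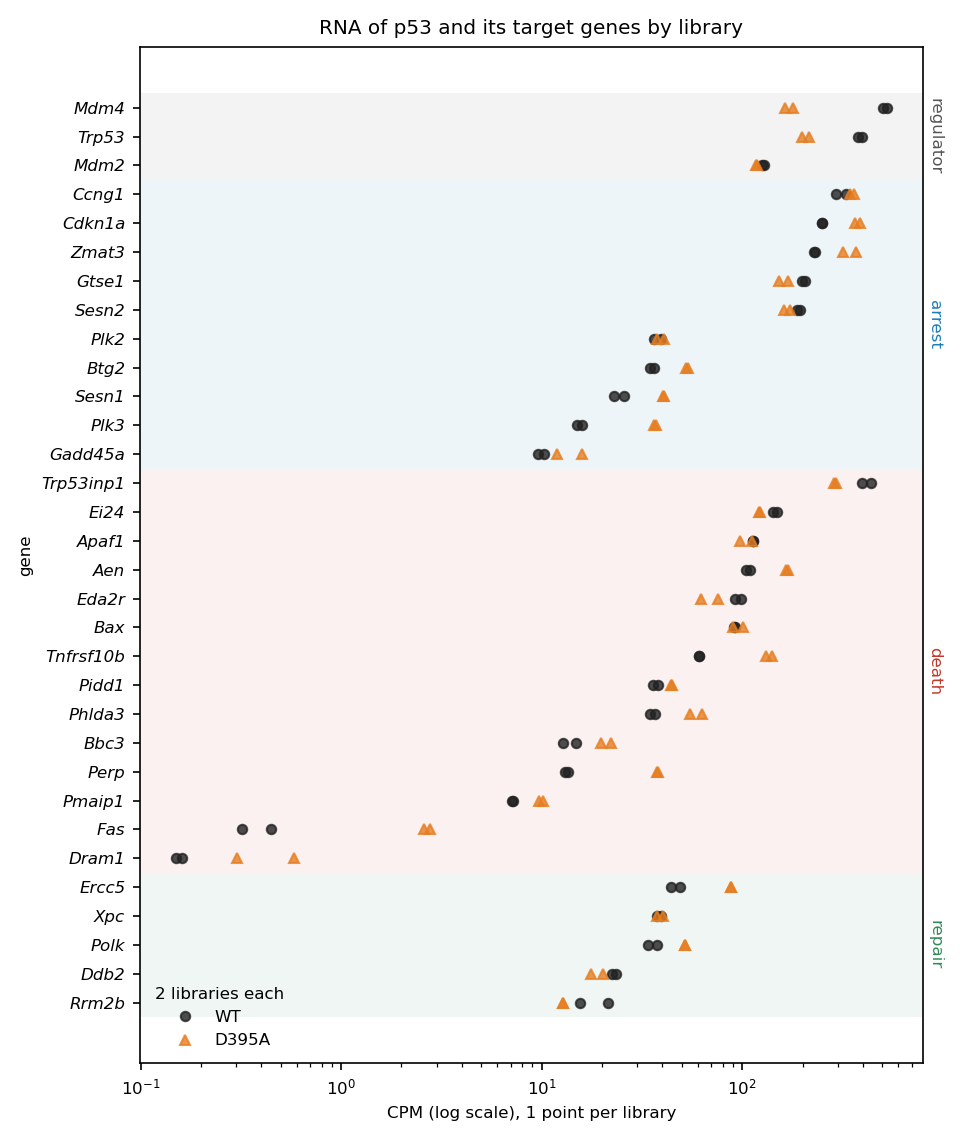
CPM of each member in the 4 RNA libraries (log axis), with 1 point per library and members grouped by role. For Trp53 and Mdm4 the WT points lie right of the D395A points, and for Cdkn1a, Perp, Tnfrsf10b and Fas they lie left of them.

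Among the 10 arrest genes 7 rose (70%, against 36.8% of all tested genes), 2 fell (20%, against 34.3%) and 1 did not pass. Their median log2 fold change was 0.52. Cdkn1a stood at 251 and 249 CPM in WT but 387 and 364 CPM in D395A. It was 1.503-fold higher (log2 fold change 0.59 ± 0.07 SE, adjusted p = 1.71e-06, edgeR quasi-likelihood test, Benjamini-Hochberg), with no overlap between the genotypes. Plk3, a polo-like kinase of the stress response, stood at 15.8 and 15.02 CPM in the WT libraries against 36.4 and 37.3 CPM in D395A. This rise of 2.40-fold (adjusted p = 9.34e-09, same test) was the largest among the arrest genes, and 3.3% of its exonic bases are shared with a gene on the opposite strand. Sesn1, a sestrin that restrains mTORC1 signalling, stood at 23.0 and 25.8 CPM in WT, compared with 40.6 and 40.3 CPM in D395A. Its relative Sesn2 moved the other way, from 194 and 188 CPM in WT to 161 and 172 CPM in D395A. Both passed, Sesn1 with a log2 fold change of 0.72 ± 0.08 SE and Sesn2 with -0.19 ± 0.06 SE, but Sesn2 did so narrowly (adjusted p = 0.0140, edgeR quasi-likelihood test, Benjamini-Hochberg). Its adjusted p was 0.063 with the DESeq2 Wald test, and between 0.0622 and 0.161 when WT replicate 1, WT replicate 2 or D395A replicate 1 was left out. It was 0.0621 in the fit over genes that share no exonic base with an opposite gene, of which Sesn2 is 1.

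The remaining arrest genes covered RNA-binding proteins, damage sensors and mitotic regulators. Zmat3, a zinc finger protein that binds RNA, stood at 230 and 229 CPM in WT but 318 and 368 CPM in D395A. Btg2, an antiproliferative cofactor of mRNA deadenylation, stood at 34.8 and 36.5 CPM in the WT libraries against 53.6 and 52.5 CPM in D395A. Zmat3 and Btg2 both rose, with log2 fold changes of 0.58 ± 0.08 SE and 0.57 ± 0.07 SE. Gadd45a stood at 10.3 and 9.55 CPM in WT, compared with 16.0 and 11.9 CPM in D395A, so its D395A libraries differed more from each other than its WT libraries did. It rose by the test (log2 fold change 0.48 ± 0.15 SE), but 19.1% of its exonic bases are shared with a gene on the opposite strand, and without D395A replicate 1 the log2 fold change was 0.30 (adjusted p = 0.0797, edgeR quasi-likelihood test, Benjamini-Hochberg). The 482 tested genes of its chromosome, 6, with a mean of at least 10 CPM had a median log2 fold change of 0.17. Ccng1 stood at 293 and 328 CPM in WT but 359 and 343 CPM in D395A, a log2 fold change of 0.18 ± 0.07 SE close to the threshold (adjusted p = 0.0407, edgeR quasi-likelihood test, Benjamini-Hochberg). Without WT replicate 1 it was 0.09 (adjusted p = 0.530), and without WT replicate 2 it was 0.25 (adjusted p = 0.0689, same test). Gtse1 fell, from 206 and 198 CPM in WT to 153 and 170 CPM in D395A. Plk2, another polo-like kinase, stood at 36.3 and 39.6 CPM in the WT libraries against 37.7 and 40.9 CPM in D395A. Its libraries overlapped between the genotypes and its log2 fold change of 0.05 ± 0.08 SE did not pass.

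Death genes included the 2 largest rises of the set. Of the 13 tested, 8 rose (61.5%, against 36.8% of all tested genes), 3 fell (23.1%, against 34.3%) and 2 did not pass. Their median log2 fold change was 0.47. Receptors of the cell surface came first. Fas, a death receptor, had 6 and 6 reads in WT and 34 and 52 in D395A, or 0.448 and 0.322 CPM against 2.59 and 2.76 CPM. The fitted log2 fold change was 2.81 ± 0.39 SE (adjusted p = 1.36e-05, edgeR quasi-likelihood test, Benjamini-Hochberg), the highest of the members at the lowest level of those tested. Tnfrsf10b, the mouse receptor for the death ligand TRAIL, stood at 60.7 and 61.2 CPM in WT, compared with 132 and 140 CPM in D395A. It was 2.24-fold higher (log2 fold change 1.16 ± 0.07 SE, adjusted p = 9.48e-10, same test), with the genotypes well apart. Eda2r, a receptor for ectodysplasin A2, fell instead, from 91.6 and 98.6 CPM in WT to 62.2 and 75.8 CPM in D395A (log2 fold change -0.46 ± 0.08 SE).

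Genes that act at the mitochondrion or the membrane differed among themselves. Perp, a membrane protein of desmosomes, stood at 13.1 and 13.5 CPM in WT but 38.2 and 37.7 CPM in D395A. It was 2.85-fold higher (log2 fold change 1.51 ± 0.09 SE, adjusted p = 1.50e-09, edgeR quasi-likelihood test, Benjamini-Hochberg), the second largest rise of the set. Bbc3, which encodes the BH3-only protein PUMA, stood at 14.8 and 12.8 CPM in the WT libraries against 22.1 and 19.9 CPM in D395A. Pmaip1, which encodes the BH3-only protein NOXA, stood at 7.10 and 7.19 CPM in WT, compared with 10.1 and 9.73 CPM in D395A. Both BH3-only genes rose, by log2 fold changes of 0.61 ± 0.11 SE and 0.47 ± 0.14 SE, and Pmaip1 did not pass with the DESeq2 Wald test (adjusted p = 0.076). Bax, the pore-forming effector, stood at 91.5 and 92.1 CPM in WT, compared with 101 and 89.9 CPM in D395A. It did not pass, with a log2 fold change of 0.06 ± 0.07 SE and overlapping libraries, and 12.2% of its exonic bases are shared with a gene on the same strand. Ei24, a protein of the endoplasmic reticulum membrane, fell from 143 and 149 CPM in WT to 122 and 121 CPM in D395A, and 6.7% of its exonic bases are shared with a gene on the opposite strand.

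Other death genes act in signalling and in the caspase platforms. Aen, a nuclease of apoptotic cells, stood at 105 and 109 CPM in the WT libraries against 165 and 169 CPM in D395A. Phlda3, which restrains AKT, stood at 34.7 and 36.8 CPM in WT, compared with 62.9 and 55.2 CPM in D395A. Aen and Phlda3 rose, with log2 fold changes of 0.65 ± 0.06 SE and 0.72 ± 0.08 SE. Trp53inp1, a cofactor that promotes p53 activity and autophagy, fell from 396 and 439 CPM in WT to 286 and 295 CPM in D395A (log2 fold change -0.52 ± 0.07 SE). Pidd1, a scaffold of the caspase-2 complex, stood at 37.9 and 35.7 CPM in WT but 44.0 and 44.6 CPM in D395A. It rose (log2 fold change 0.27 ± 0.07 SE), but without WT replicate 2 the log2 fold change was 0.22 (adjusted p = 0.0982, edgeR quasi-likelihood test, Benjamini-Hochberg). Apaf1, the scaffold of the apoptosome, stood at 113 and 113 CPM in the WT libraries against 98.1 and 112 CPM in D395A. Its log2 fold change of -0.11 ± 0.07 SE did not pass, was -0.21 and passed without D395A replicate 2 (adjusted p = 0.00358, edgeR quasi-likelihood test, Benjamini-Hochberg), and was 0.02 without D395A replicate 1.

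Repair genes were evenly divided. Of the 5, 2 rose (40%, against 36.8% of all tested genes), 2 fell (40%, against 34.3%) and 1 did not pass. Their median log2 fold change was 0.01. Ercc5, which encodes the XPG nuclease of nucleotide excision repair, stood at 44.1 and 48.9 CPM in WT, compared with 88.3 and 88.3 CPM in D395A. It was 1.89-fold higher (log2 fold change 0.92 ± 0.07 SE, adjusted p = 3.32e-08, edgeR quasi-likelihood test, Benjamini-Hochberg), with the genotypes far apart. Polk stood at 33.9 and 37.4 CPM in WT but 52.0 and 51.9 CPM in D395A, a rise of 0.54 ± 0.08 SE on the log2 scale. Rrm2b, the p53-inducible subunit of ribonucleotide reductase, stood at 15.6 and 21.4 CPM in the WT libraries against 12.8 and 12.8 CPM in D395A. It fell (log2 fold change -0.55 ± 0.14 SE), but its WT libraries lay far from each other, and without WT replicate 2 the value was -0.30 (adjusted p = 0.0862, edgeR quasi-likelihood test, Benjamini-Hochberg). Xpc and Ddb2 both encode damage recognition proteins of nucleotide excision repair. Xpc stood at 39.2 and 37.6 CPM in WT, compared with 40.1 and 37.5 CPM in D395A, with overlapping libraries and no pass. Its log2 fold change was 0.01, and like Gadd45a it lies on chromosome 6, with a median of 0.17 as given above. Ddb2 stood at 23.4 and 22.3 CPM in WT but 20.2 and 17.6 CPM in D395A and fell (log2 fold change -0.28 ± 0.10 SE), but 23.8% of its exonic bases are shared with a gene on the opposite strand. The adjusted p of Ddb2 was 0.170 with the DESeq2 Wald test, 0.100 without WT replicate 1 and 0.169 without D395A replicate 2.

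Levels per length, as TPM (the CPM analogue scaled by transcript length, computed from the counts and the exonic length), placed Cdkn1a first among the members in both genotypes, at 383 ± 7.59 TPM in WT and 596 ± 6.25 TPM in D395A (SD, n = 2). Trp53 was next in WT at 326 ± 5.12 TPM and ranked 5 in D395A at 181 ± 20.4 TPM. Ccng1 followed in WT at 302 ± 31.3 TPM, a level that did not differ from that of Trp53 beyond their spread, and stood second in D395A at 353 ± 7.64 TPM. Gtse1 ranked 4 in both genotypes, at 253 ± 0.707 TPM and 210 ± 27.2 TPM, and its D395A level lay within its spread of the 214 ± 6.69 TPM of Bax. Mdm4 moved from rank 8 to rank 20 and Perp from rank 23 to rank 14. Fas and Dram1 held the lowest ranks in both genotypes.

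Half-site matches and RNA changes were set side by side. Of the 11 members with a half-site 6 rose, 3 fell and 2 did not pass, with a median log2 fold change of 0.17. Of the 13 with a window and no half-site 12 were tested, of which 7 rose, 3 fell and 2 did not pass, with a median of 0.42. Of the genes with a pair, Cdkn1a and Ccng1 rose and Gtse1 fell. These counts show rising and falling genes on either side. Over all tested genes 36.8% rose and 34.3% fell, and the calls of all genes with and without a half-site were not counted.

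The wider pathway was described by 4 further lists. Their counts are read against 36.8% of all tested genes rising, 34.3% falling and 71.1% passing in either direction. All 14 activating kinases and modifiers passed, with 7 higher and 7 lower in D395A. The damage kinases Atm (1.44-fold), Prkdc (1.97-fold) and Chek2 (1.72-fold) were lower, and Hipk2, a kinase that phosphorylates p53, was 3.47-fold higher at 116 and 131 CPM in D395A against 36.9 and 34.5 CPM in WT. The count of 7 lower was 4 with the DESeq2 Wald test and 4 without WT replicate 1. Of 8 factors that restrain p53, 2 rose, 5 fell and 1 did not pass. Usp7, a deubiquitinase of MDM2 and p53 (1.74-fold), the deacetylase gene Sirt1 (1.65-fold) and the kinase gene Aurka (1.31-fold) were lower, and Ppm1d, which encodes the phosphatase WIP1 and is itself a p53 target, was 1.71-fold higher. The other gene that rose was Ppp1r13l (log2 fold change 0.26), and the count of rising factors was 1 with the DESeq2 Wald test and without WT replicate 1, WT replicate 2 or D395A replicate 2. A fit over only the genes that share no exonic base with an opposite gene tested 6 restraining and 10 activating factors, of which 3 and 3 fell. Of all 12377 genes tested in that fit, 4248 fell.

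The p53 family and core apoptosis machinery, 14 genes, divided into 6 higher, 6 lower and 2 that did not pass. Casp8, the initiator caspase below death receptors, was 6.33-fold higher at 29.1 and 30.0 CPM in D395A against 5.30 and 4.19 CPM in WT. Casp9, the initiator caspase of the apoptosome, was 2.32-fold lower, Xiap, a caspase inhibitor, was 2.02-fold lower, and Bid, which links both routes, was 1.98-fold lower with 17.7% of its exonic bases shared with an opposite gene. In this list the initiator caspase of the receptor route rose and that of the mitochondrial route fell, a contrast of 2 genes only. Other genes of the list went either way. Cycs (1.73-fold) and Bcl2l11 (1.63-fold) were higher, and Diablo (1.38-fold, with 21.1% of its exonic bases shared with an opposite gene) was lower. The fit over genes that share no exonic base with an opposite gene tested only 8 of these 14 genes, of which 2 fell.

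Of 12 cell cycle genes known to be lowered through p21 and the DREAM complex, 9 fell, 1 rose and 2 did not pass, with a median log2 fold change of -0.44. Those that fell included the mitotic cyclins Ccnb1 (1.45-fold) and Ccnb2 (1.51-fold) and the transcription factor gene Mybl2 (2.09-fold). Foxm1, a transcription factor of the same mitotic programme, was 1.93-fold higher, at 254 and 274 CPM in D395A against 140 and 133 CPM in WT. Among all tested genes 34.3% fell. The fit over genes that share no exonic base with an opposite gene tested 9 of the 12, of which 5 fell.

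**Figure D3:**
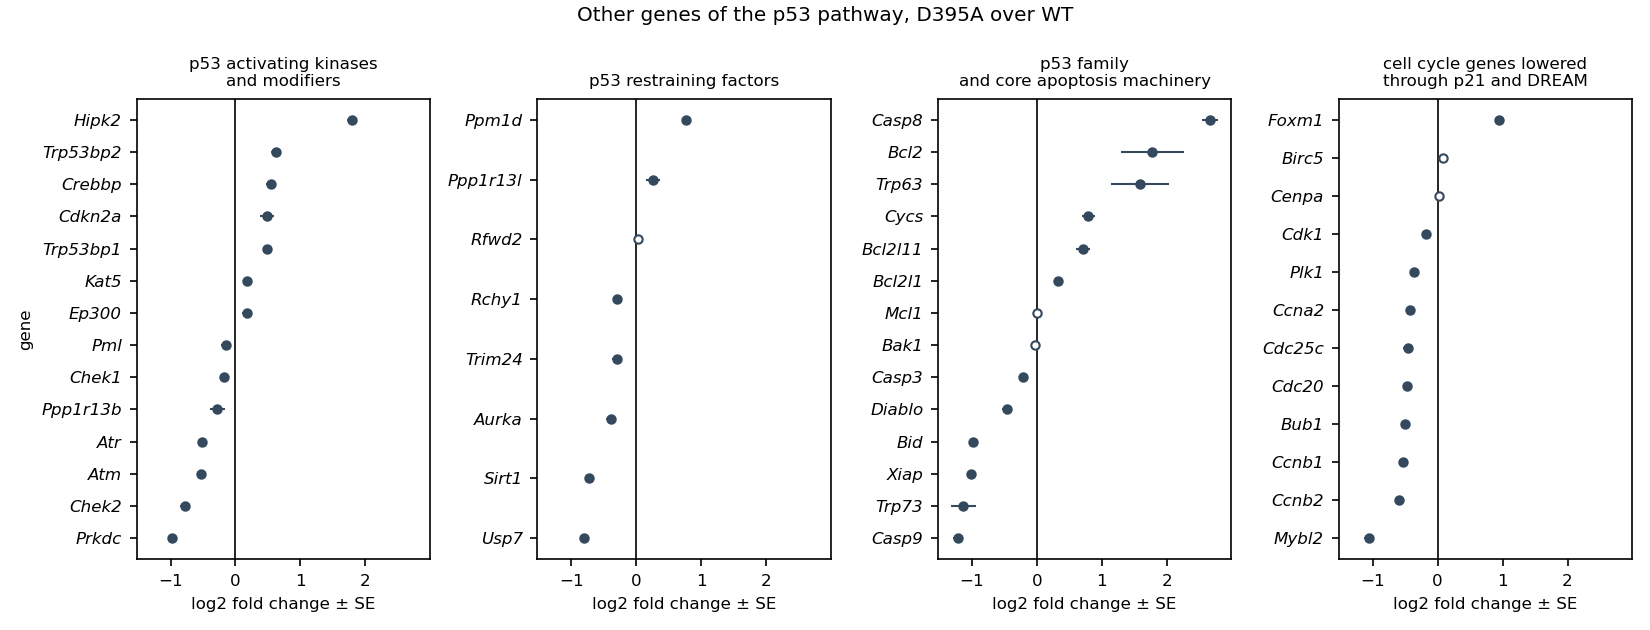
Log2 fold change (D395A against WT) of each gene in the 4 wider p53 pathway lists, with filled points for genes that passed an adjusted p of 0.05. The cell cycle list lies mainly below 0, with Foxm1 above it, and Hipk2 and Casp8 are the highest points of their lists.

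The m6A lists were read as descriptions, since there is 1 list per genotype and no replicate. They differ in depth of evidence: the WT list held 48445 peaks with a median fold enrichment of 6.31 and a threshold of 0.05 on q, and the D395A list held 38823 peaks with a median of 2.66 and a threshold of 0.05 on p. Only 5275 peaks of the D395A list reached a q of 0.05. Fold enrichment, immunoprecipitate over input at the summit, is the authors' value for each peak.

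The WT list held a peak in 27 of the 32 members, against 66.5% of all tested genes. At a mean of at least 10 CPM it held a peak in 26 of 29 members, against 77.1% of such genes. The D395A list held a peak in 22 members, against 52.6% of all tested genes, and in 22 of the 29, against 71.7%. With D395A peaks held to a q of 0.05, as in the WT list, 8 members kept a D395A peak, against 17.3% of all tested genes, and at a −log10 p of at least 5 it was 7, against 15.4%. A WT peak and no D395A peak was seen in 8 members, Mdm2, Ccng1, Gadd45a, Plk2, Perp, Pidd1, Dram1 and Xpc, against 26.2% of all tested genes, and in 19 members with the q threshold, against 53.6%. Both lists held a peak in 19 members, the D395A list alone in Trp53, Plk3 and Ei24, and neither list in Pmaip1 and Fas.

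The 64 WT peaks in the members had a median fold enrichment of 5.62 (range 1.91 to 27.2) and the 50 D395A peaks a median of 2.65 (range 1.77 to 6.43). Summits of the WT peaks lay in the last exon for 21, in an internal exon for 14, in the first exon for 2, in an intron for 23 and outside the gene for 4. Summits of the D395A peaks lay in the last exon for 6, in an internal exon for 9, in the first exon for 2, in an intron for 32 and outside for 1. Of these, 7 WT peaks (10.9%, against 10.1% of the whole WT list) and 7 D395A peaks (14%, against 13.5% of the whole D395A list) overlapped a peak of the other list, in Mdm4, Btg2, Bax, Eda2r, Aen, Phlda3 and Apaf1. Both shares were near those of the whole lists. Of the 19 genes with both kinds, 17 had their highest fold in the WT list. Cdkn1a (2.82 in WT and 2.87 in D395A) and Tnfrsf10b (5.51 in WT and 6.43 in D395A) did not. In both genes these peaks lay at different sites and did not overlap. In Cdkn1a the WT summit lay in an internal exon 7.83 kb from the start, and the D395A summit in an intron at 3.03 kb. In Tnfrsf10b the WT summit lay in the last exon at 14.91 kb, and the D395A summit in the first exon at 0.12 kb. The Cdkn1a D395A peak (−log10 q of 1.12) missed the q threshold of the WT list, and that of Tnfrsf10b (7.27) met it.

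**Figure D4:**
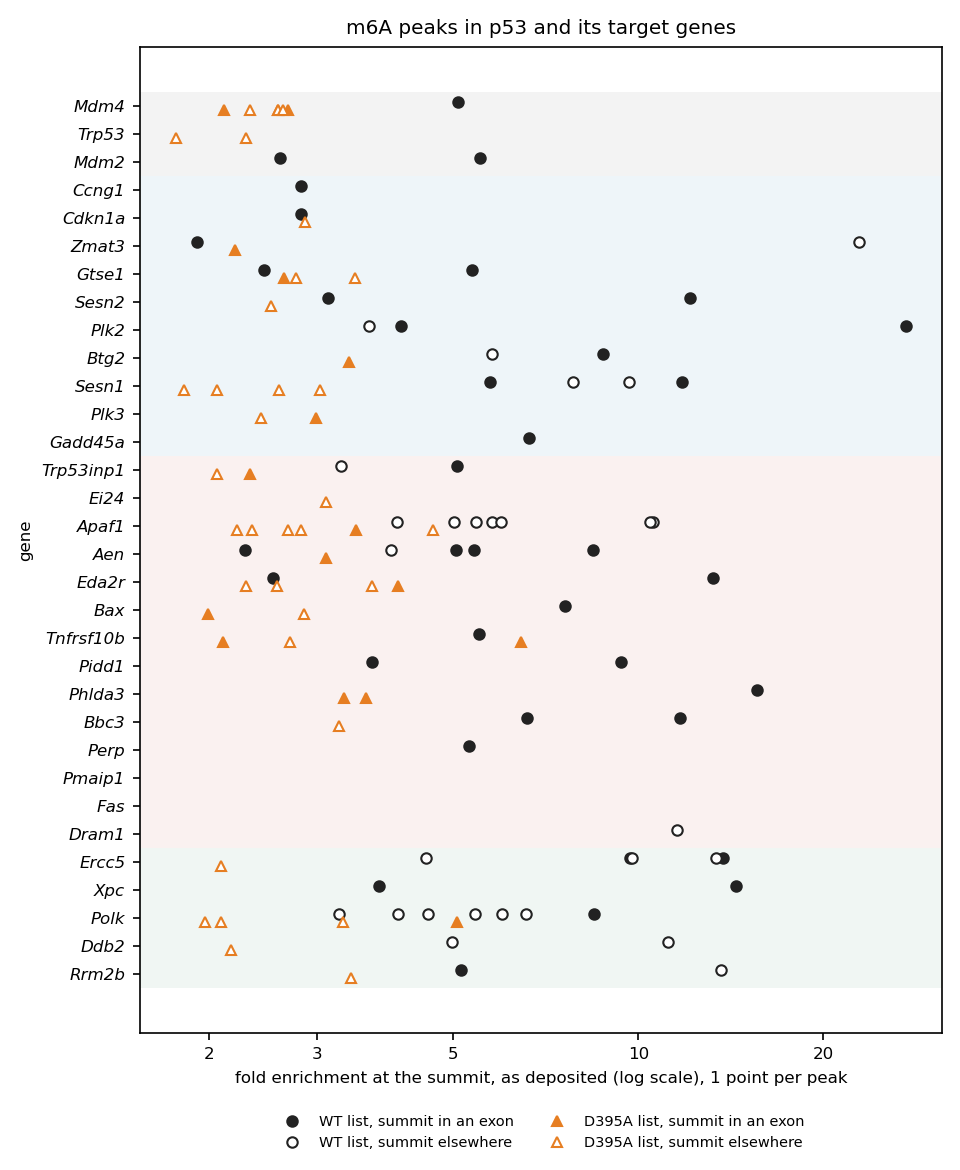
Fold enrichment (log axis) of each m6A peak in each member, as deposited, with circles for the WT list and triangles for the D395A list, filled where the summit lies in an exon. WT peaks reach 27.2 in Plk2, whereas the highest D395A peak is 6.43 in Tnfrsf10b, and the lists have different thresholds.

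The strongest WT peak of a gene most often had its summit in the last exon, in 14 of 27 genes. Such a summit need not lie near the gene's end, as in Btg2, where it was 1.68 kb from the start and 2.27 kb from the end. In Plk2 it spanned chr13:110399769-110401079 (mm10), had a fold enrichment of 27.2 and its summit in the last exon, 0.56 kb before the annotated end. Phlda3 had a WT peak of 15.6-fold at chr1:135767796-135769933, with its summit in the last exon. A weaker D395A peak of 3.60-fold overlapped it. Xpc (14.4-fold, an internal exon) and Ercc5 (13.7-fold, the last exon) led the repair genes by exonic peaks. The Rrm2b peak of 13.7-fold had its summit in an intron and also covered the predicted gene Gm3362, and the Ddb2 peak of 11.2-fold had its summit beyond the gene's end, and covered part of the opposite-strand gene Acp2. The lists give no strand, so a peak shared by genes cannot be assigned to either.

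The second highest WT peak of the set lay at a gene start, and the regulators had weaker peaks. The WT peak of Zmat3 (22.9-fold, chr3:32365721-32366642) had its summit 128 bases before the annotated start, and Ercc5 also had a WT peak with its summit before the start, by 337 bases (13.4-fold). Mdm2 had WT peaks of 5.52-fold in its last exon and 2.62-fold in an internal exon. Mdm4 had 1 WT peak, of 5.08-fold at chr1:132991572-132992434, in exon 13 of 16 in the merged annotation, and a D395A peak of 2.12-fold overlapped it. The other 5 of its 6 D395A peaks, up to 2.69-fold, overlapped no WT peak. Trp53 had no WT peak, and its 2 D395A peaks lay in the first intron at 1.77-fold and 2.298-fold, neither at a q of 0.05. Trp53 and Mdm4 both fell in RNA, and they had 0 and 1 WT peaks and 2 and 6 D395A peaks, none of the latter at a q of 0.05.

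**Figure D5:**
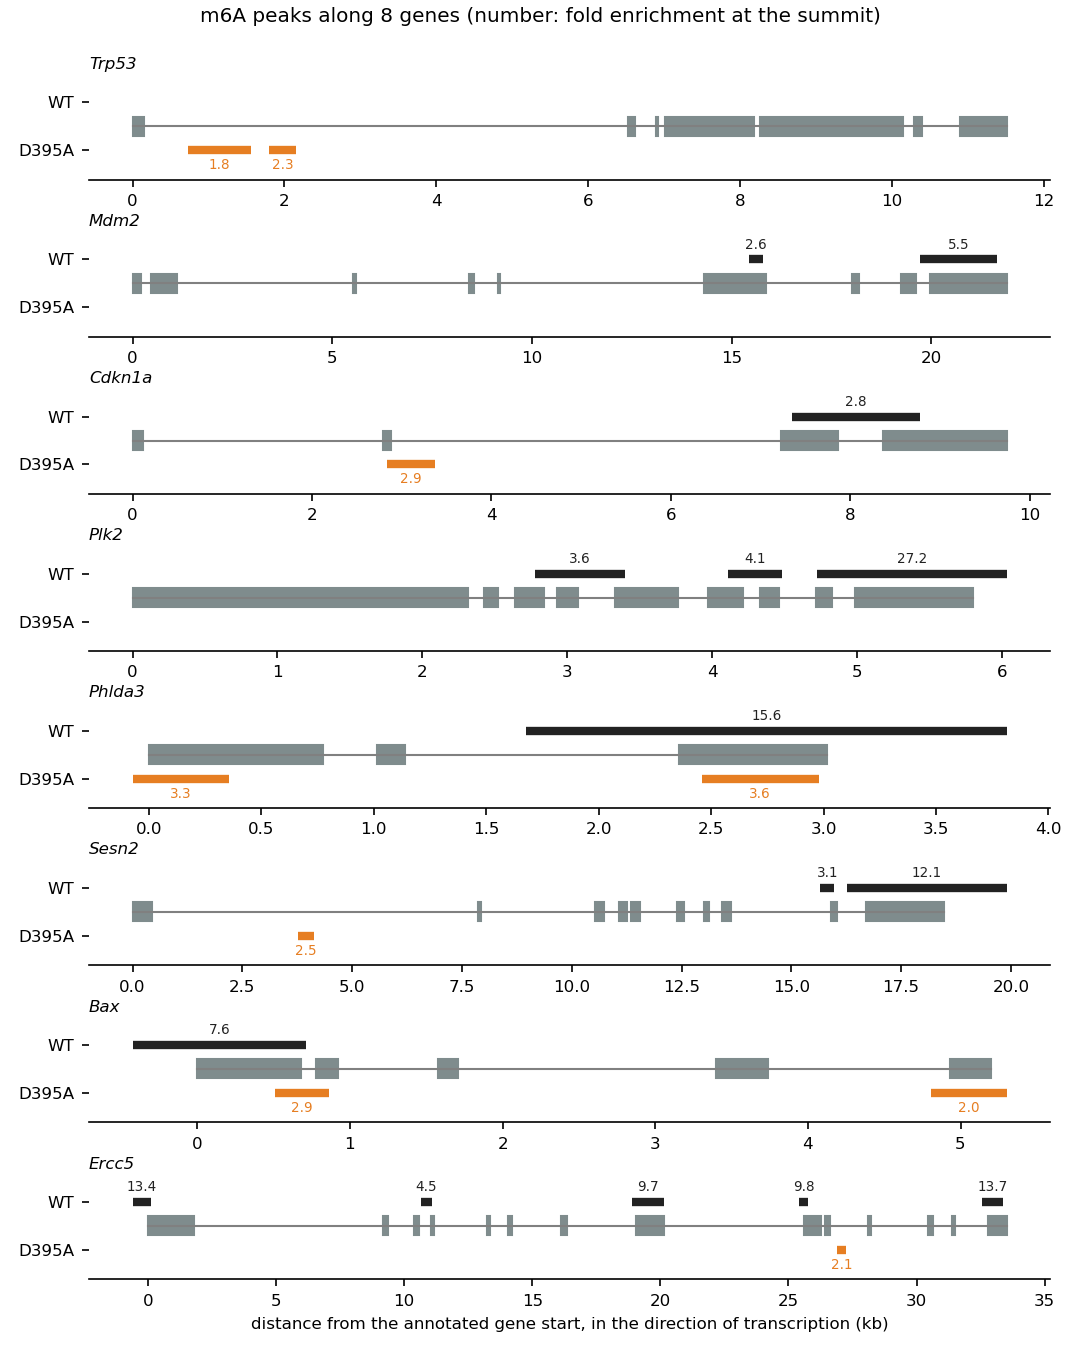
Position of m6A peaks along 8 members, in kb from the annotated start in the direction of transcription, with WT peaks above and D395A peaks below the gene and the fold enrichment beside each bar. Grey boxes are merged annotated exons. The WT peak over the last exon of Plk2 reads 27.2, and Trp53 shows D395A peaks only, in its first intron.

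RNA calls were then set beside the peaks. Of the 26 tested members with a WT peak 14 rose, 7 fell and 5 did not pass, and of the 5 without a WT peak 3 rose and 2 fell. The median of the strongest WT fold was 8.62 over the 14 that rose, 11.2 over the 7 that fell and 10.6 over the 5 that did not pass, with ranges that overlapped. Of the 8 members whose only peaks were in the WT list, 7 were tested, of which 4 rose and 3 did not pass. Over all tested genes 36.8% rose and 34.3% fell. Calls of all tested genes by peak status were not counted, so nothing about the members is drawn from these splits.

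WT peaks also reached promoter windows. They covered all 300 bases of the windows of Ercc5 (13.4-fold) and Bax (7.59-fold), all 300 bases of 1 of 2 windows of Sesn1 (11.8-fold), and 211 bases of 1 of 2 windows of Gtse1 (4.496-fold). In Sesn1 and Gtse1 the half-site printed above lies in the other window, which no WT peak reached. The Bax window is printed because a p53 half-site (capitals) and a WT m6A peak fall in the same 300 bases.
Bax window, chr7:45466849-45467148, minus strand: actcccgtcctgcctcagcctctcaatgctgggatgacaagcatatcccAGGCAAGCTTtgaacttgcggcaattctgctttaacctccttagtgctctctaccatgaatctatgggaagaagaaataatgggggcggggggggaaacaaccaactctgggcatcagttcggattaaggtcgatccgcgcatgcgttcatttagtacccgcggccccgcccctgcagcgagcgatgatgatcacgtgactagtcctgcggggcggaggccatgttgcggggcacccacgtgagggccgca

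The half-site of Bax starts 201 bases before the annotated start. The peak that covers the window, chr7:45466183-45467322, extends into the first exon and also covers the predicted gene Gm45808. GGACT, a common form of the m6A sequence context, was searched on both strands and was present in 1 of these 4 windows, that of Bax, against 45.5% of all windows. In the Bax window the match lies on the strand opposite the gene, as agtcc in the printed letters. The gene strand of that window holds no GGACT. The letters of GGACT can lie inside a half-site, as they do in the Cdkn1a and Trp53 sequences above. D395A peaks touched 6 member windows.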

How the data were processed

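Members and lists were chosen with earlier results of these data known. Per the submitters' processing notes, the authors used HISAT2 2.1.0 and Bowtie2 2.3.4.1 (aligners), featureCounts 1.6.3 (counting), MACS2 2.1.1 (peaks), edgeR 3.22.5, Trimmomatic 0.33.0, SAMtools 1.7, Picard 2.16.0 and FastQC, with builds mm10 and hg38, and the notes do not tie tools to data types. The RNA kit keeps strand, but which strand setting the counting used was not given in the sources used here. RNA values are raw read counts per gene as deposited. 1 count column differs from D395A in 1 character and was taken as D395A replicate 1.

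Peak values are the authors' fold enrichment (a ratio), −log10 p and −log10 q as deposited. The other deposited column, the score, and 2 unlabelled columns of the WT list were not used. The sources used here do not tell how the WT libraries were merged. Histone and factor immunoprecipitations and human cells were not analysed here.

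The RNA fit used edgeR 4.0.16 in R 4.3.3: filterByExpr, TMM scaling, quasi-likelihood test, Benjamini-Hochberg adjustment over 17778 genes and a threshold of 0.05. CPM used the scaled library sizes, and TPM the exonic length. The biological coefficient of variation was 5.47%. All members are named. Each wider list names up to 4 called genes of smallest adjusted p. The cell type markers, Ppp1r13l, Cycs, Bcl2l11 and Diablo were named after their values were seen. Peaks counted with 1 bp or more in the gene body, and exons are merged annotated exons. Promoter windows came from RefSeq (GRCm38.p6, the mm10 assembly). The fit was tested on simulated data. Alternatives used DESeq2 1.42.0, limma 3.58.1, other scalings, filters and peak thresholds, a replicate block, genes without opposite-strand overlap, and each replicate left out. Python 3.11.15, pandas 2.3.3, numpy 2.4.6 and matplotlib 3.10.9 made tables and figures.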

Additional observations from a re-analysis of the deposited data

How the results depend on the processing

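There were 2 libraries per genotype and 1 peak list each, and the depth of the peak libraries is not in the files used here. Of 399 recalculations of single members, 379 kept direction and side of the threshold, 14 lost the call, 1 gained it and 5 changed sign, and 19 of 26 called members kept their call in every alternative. The sign changed only in members that had not passed: over the fits that left out 1 replicate, Plk2 ranged from -0.018 to 0.134, Xpc from -0.029 to 0.065 and Apaf1 from -0.208 to 0.016 (log2 fold change). The cause was not tested.

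Leaving out each replicate gave 15 to 17 members higher and 7 to 9 lower. Ranges were 1 to 2 for arrest genes lower, 1 to 2 for repair genes lower, 4 to 7 for activating factors lower and 1 to 2 for restraining factors higher. In these fits a genotype with 1 library was taken to vary as the other did. The DESeq2 Wald test gave 1 arrest gene lower, 1 repair gene lower, 4 activating factors lower and 1 restraining factor higher. The fit over genes with no opposite-strand overlap drops some genes, and in it Sesn2 was tested and lost its call. Lower counts there, of the genes tested, were 1 of 8 for arrest, 1 of 4 for repair and 3 of 10 for activating factors. They were 3 of 6 for restraining factors, 2 of 8 for apoptosis genes and 5 of 9 for cell cycle genes. At a −log10 p of at least 5, 7 members had a D395A peak (15.4% of all tested genes) and 20 a WT peak without one (54.8%). With D395A peaks at a q of 0.05, a threshold added after seeing the data, these were 8 (17.3%) and 19 (53.6%). The labels tie same-numbered libraries by number only and do not say whether they share more. Their deviations from the genotype mean correlate at 0.057. With 2 libraries per genotype that is a single value and cannot settle it. With the replicate number as a block, 17 members were higher and 9 lower, as without it.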
